A study of Mus musculus with 2 samples.

Results

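Stab1, Stab2, Clec4g, Oit3, Gpr182, Kdr, Lyve1, Bmp2, Ptprb and Egfl7 are 10 genes known from the endothelium that lines the liver sinusoids. They were taken by symbol and not by a rule on measured values, as 10 of the 32285 genes of the mouse count matrices. Each symbol matched 1 gene. The choice was made with earlier results of these data known. Liver sinusoidal endothelial cells form a wall with open pores and no continuous basement membrane between blood and hepatocytes. They are known as scavenger cells that take up waste macromolecules through large endocytic receptors, and as a source of signals to hepatocytes, among them bone morphogenetic proteins that set iron handling. Vascular endothelial growth factor (VEGF) signalling keeps this specialised state.

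Single-cell RNA sequencing was performed on cells from BALB/cAnNCrl mice bearing liver metastases of the 4T1 mammary carcinoma line. Mice received vehicle, low-dose or high-dose CBL0137, a DNA-binding compound that displaces histones, and tissues were taken 5 days after treatment. Per the study, the treatment was a hepatic arterial infusion, which delivers directly to the liver. Cells of 2 mice were pooled per treatment group and marked with an antibody-linked hashtag (A0301 for vehicle, A0305 for low dose, A0310 for high dose), and the 3 groups were sequenced together, once for liver and once for spleen. A group was therefore 1 pooled sample, so no test between groups was possible, intervals are exact 95% intervals that cover counting error only, and cells are not replicates. The doses were given as low and high only, and the cells were enriched as leukocytes by density centrifugation or, per the study's methods, by CD11b beads, so endothelial cells were not the population sought.

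The sample labels and the names of the deposited files were swapped between the tissues: the sample labelled spleen carried the matrix named for liver, and the other way round. The liver-named matrix held all 10 hepatocyte markers at 433 CPM (a cell group's summed count over its summed total, scaled to 1000000) of unique molecular identifiers (UMIs, each standing for 1 captured transcript), with 114 hepatocyte-like and 272 Kupffer-like cells. The spleen-named matrix held 3 of the 10 hepatocyte markers at 100.3 CPM, no cluster of either type, and 1239 B cell-like cells. The matrices are called liver-named and spleen-named here. The liver-named matrix had 4830 barcodes with a median of 3368.5 UMIs, and the spleen-named matrix had 9591 with a median of 4673. The libraries shared 15 barcode sequences, none of them in an endothelial-like cell. After removal of hashtag doublets 4615 and 8975 cells were kept, and 1627 of the liver-named barcodes carried no called hashtag, 1425 of them with A0310 as the most counted tag. These cells were used to describe cell types but not to compare treatments.

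The hashtags that assign each cell to a treatment are 15 bases long and are shown because every comparison between groups rests on them.
A0301: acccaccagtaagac
A0305: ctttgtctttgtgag
A0310: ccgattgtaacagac

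The stretch of 250 bases before the transcription start was read for Stab1 and Clec4g, because Stab1 had UMIs outside endothelium far beyond its ratio to Clec4g, as given for the other cell classes. The sequences are RefSeq's on GRCm38.p6, written in the direction of the gene, at chr14:31168642-31168891 (minus strand) for Stab1 and chr8:3720652-3720901 (minus strand) for Clec4g. Capitals mark GGAAG or its reverse complement CTTCC, the core letters that ETS factors bind, a family with known roles in endothelium.
Stab1: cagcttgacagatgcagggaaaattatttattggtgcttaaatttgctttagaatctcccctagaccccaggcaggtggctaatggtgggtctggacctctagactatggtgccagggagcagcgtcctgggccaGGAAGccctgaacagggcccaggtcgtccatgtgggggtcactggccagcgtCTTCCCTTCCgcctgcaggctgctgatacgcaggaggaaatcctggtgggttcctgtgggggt
Clec4g: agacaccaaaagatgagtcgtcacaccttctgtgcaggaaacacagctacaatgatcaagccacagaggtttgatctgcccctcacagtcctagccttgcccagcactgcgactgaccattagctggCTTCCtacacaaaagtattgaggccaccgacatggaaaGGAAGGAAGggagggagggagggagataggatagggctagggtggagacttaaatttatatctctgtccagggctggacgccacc

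Each of these promoters held 3 matches to GGAAG on either strand, overlapping ones included. RefSeq promoters were found for 5 of the 10 members (Stab1, Stab2, Clec4g, Kdr and Egfl7, with 7 promoters in all). GGAAG was in 6 of these 7, beside 64.1% of 32851 promoters of the same length. GATAA, a form of the letters that GATA factors bind, was in 1 of 7 beside 22.6%. Other forms, such as GATAG in the Clec4g stretch, were not counted. ACAAT, bound by SOX factors, was in 1 of 7 beside 27.7%. The longer CAGGAAGT, which contains GGAAG, was in 1 of 7 beside 2.69% of all promoters. A match is a string of letters and was not tested as a binding site.

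In the liver-named matrix the 10 genes together had 22186 UMIs, or 673 CPM, and 57.1% of these came from a single cluster of 134 endothelial-like cells. That cluster, number 14 of 23, was named from general endothelial markers of which none is a member (10 of 10 raised, among them Pecam1 at 703 CPM, Cdh5 at 921 CPM and Esam at 846 CPM). The members were left out of the genes used for clustering. Their summed level was 17992 CPM in these cells and 295.1 CPM in all others, 61.0-fold higher (95% interval 59.4 to 62.6). All 10 members were at least 4-fold higher there, beside a background of 13.3% of 13553 genes. Their median log2 ratio was 6.18, beside 0.56 over all genes. A second cluster, number 0, held a further 28.9% of the member UMIs and is described separately, and without it in the comparison the summed members were 181-fold higher.

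**Figure D1:**
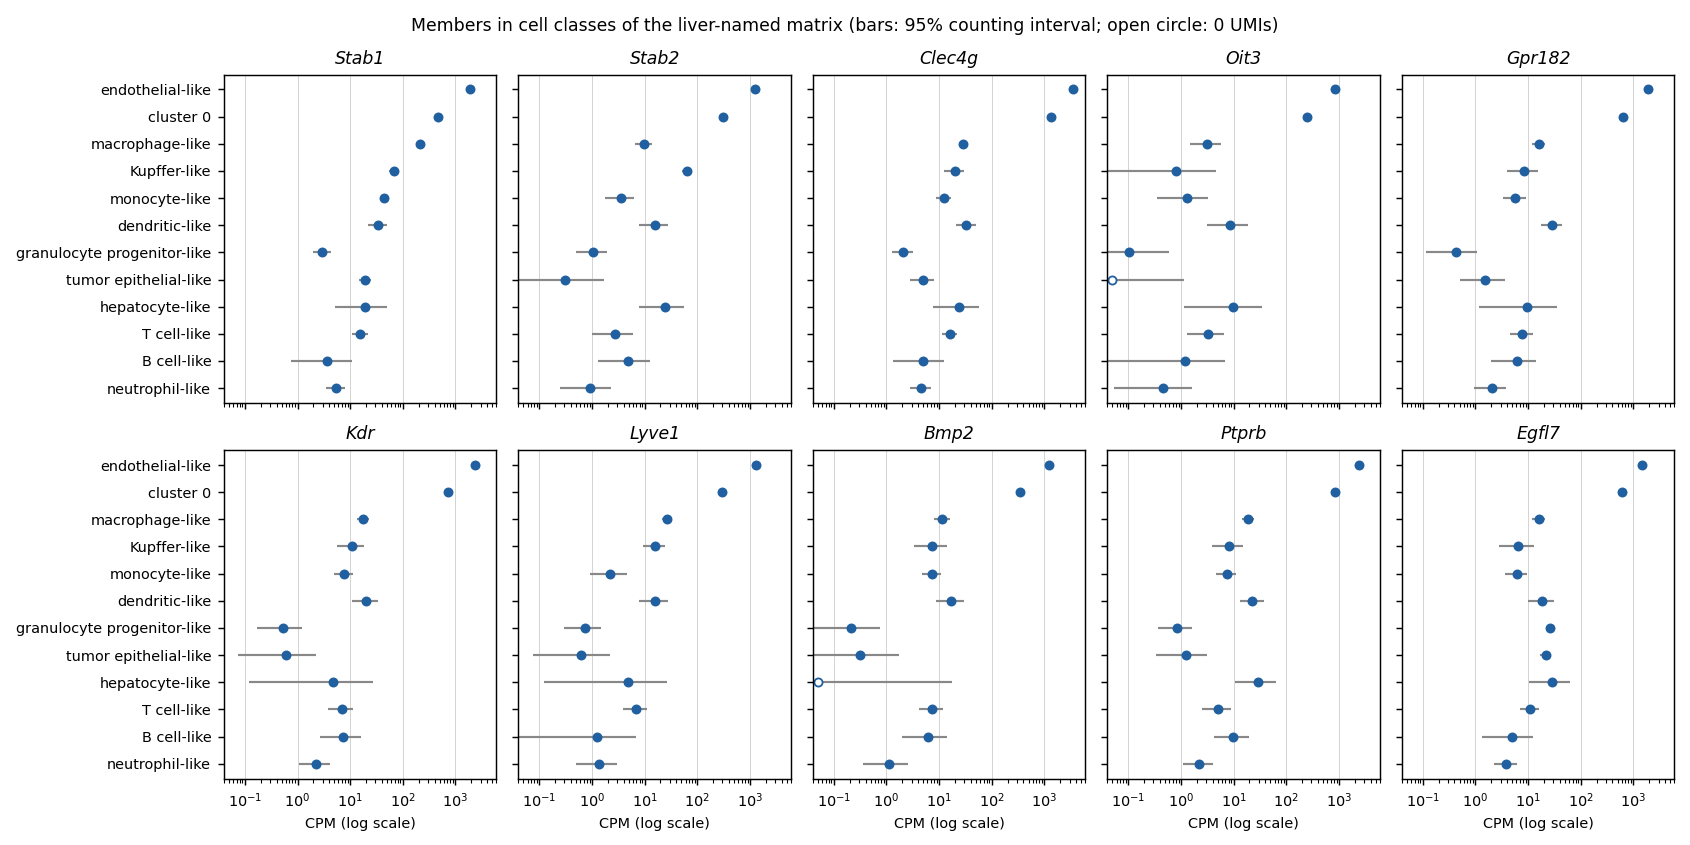
Level of each of the 10 genes (CPM, log axis, bars are exact 95% intervals of counting error, open circles stand for 0 UMIs) in 12 cell classes of the liver-named matrix. Each gene was highest in the 134 endothelial-like cells, from 838 CPM for Oit3 to 3424 CPM for Clec4g, with cluster 0 next.

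The scavenger and lectin receptors were captured in nearly every endothelial-like cell. Levels of different genes are compared here as UMIs captured per cell, which are not divided by gene length. Stab1 (stabilin-1, a large scavenger receptor, chr14:31139013-31168641, minus strand; all positions are of mm10, GENCODE M21) ranged from 1 to 26 UMIs per cell with a median of 9 and was seen in 134 of 134 cells. Stab2 (stabilin-2, the main endocytic receptor for hyaluronan, chr10:86841198-87008025, minus strand) ranged from 0 to 21 with a median of 5 and was seen in 125 cells. Stab1 and Stab2 are paralogs, yet Stab1 was 36.2-fold and Stab2 75.0-fold higher than in other cells, and the Stab1 value is the lowest among the 10.

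Clec4g (LSECtin, a C-type lectin of the sinusoid, chr8:3707064-3720651, minus strand) ranged from 0 to 72 UMIs with a median of 16, the highest median of the members, and was 60.2-fold higher than in other cells. Lyve1 (a hyaluronan receptor shared with lymphatic endothelium, chr7:110850607-110863239, minus strand) ranged from 0 to 70 with a median of 4 and was seen in 120 cells. Lyve1 was the most unevenly spread member. The 13 cells with most of it held 37.3% of its UMIs, while for the other members the top 13 cells held 21.1% to 26.3%.

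The receptors and phosphatases of endothelial signalling had similar ranges. Kdr (VEGF receptor 2, chr5:75932827-75978458, minus strand) ranged from 1 to 44 UMIs with a median of 11 and was 78.1-fold higher than in other cells. Ptprb (VE-PTP, a phosphatase that acts on the Tek receptor and on VE-cadherin, chr10:116275523-116389535, plus strand) ranged from 1 to 53 with a median of 11.5 and was 69.5-fold higher. Both were seen in all 134 cells. Gpr182 (an atypical chemokine receptor, chr10:127747276-127751732, minus strand) ranged from 0 to 34 with a median of 9, was seen in 133 cells and was 70.0-fold higher.

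The secreted members had medians of 4 to 6 UMIs per cell. Bmp2 (the bone morphogenetic protein through which sinusoidal cells raise hepcidin in hepatocytes, chr2:133552159-133562885, plus strand) ranged from 0 to 26 with a median of 6 and was 77.6-fold higher than in other cells. Egfl7 (a secreted endothelial matrix protein whose locus also carries miR-126, chr2:26580014-26593120, plus strand) ranged from 0 to 46 with a median of 6 and was 39.8-fold higher. Oit3 (a secreted zona pellucida domain protein, chr10:59422958-59441778, minus strand) ranged from 0 to 15 with a median of 4 and was 80.4-fold higher.

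The members were seen together in single cells. Each of the 134 cells had UMIs of 7 to 10 members, and 99 cells (73.9%) had all 10. Depth enters such a count, so every cell was thinned to 500 UMIs. At that depth 128 of 134 endothelial-like cells (95.5%, 90.5 to 98.3) still had 3 or more members. None of 355 T cell-like cells did, which allows a share of up to 0.845%, nor any of 851 neutrophil-like cells. Without thinning, 12 of the T cell-like cells (3.38%) had 3 or more at a median of 4028 UMIs, beside 4528 in the endothelial-like cells.

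**Figure D2:**
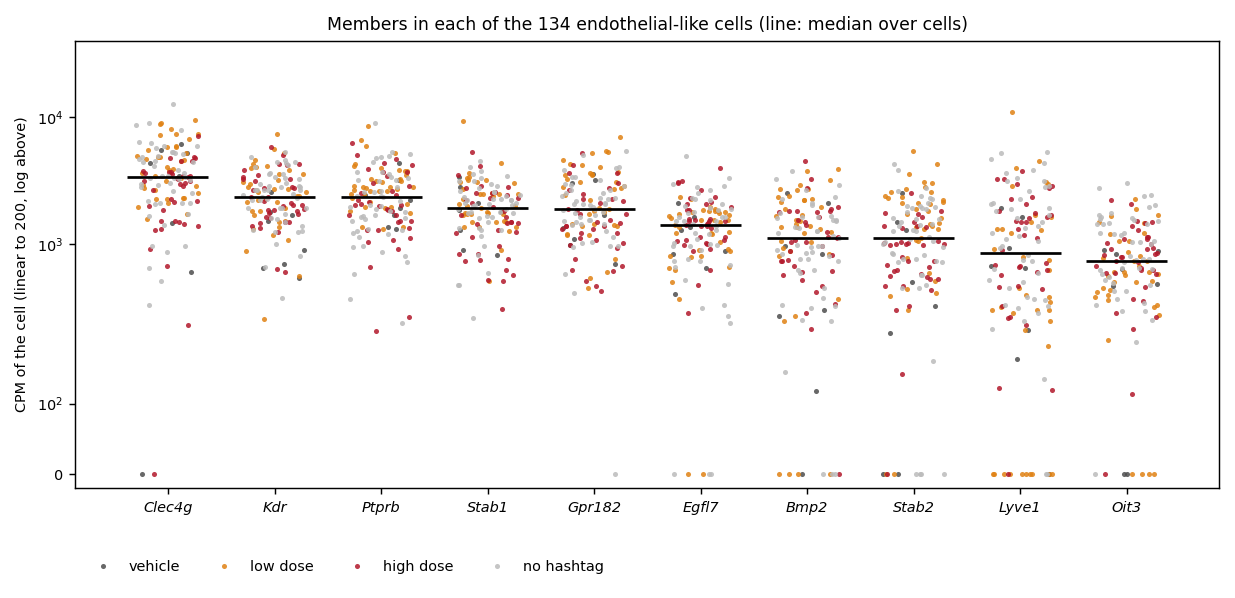
CPM of each gene in each of the 134 endothelial-like cells of the liver-named matrix (axis linear to 200 and log above, 1 point per cell coloured by treatment, lines at the median over cells). Every gene spread widely over cells, cells at 0 were most frequent for Lyve1 (120 of 134 cells had a UMI), and the treatments overlapped.

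Within the 134 cells the amounts of the members went together only loosely. Of 45 pairs, 35 had a positive Spearman correlation of CPM, and the median was 0.12. The highest was Oit3 with Lyve1 (0.48), followed by Stab2 with Bmp2 (0.39) and Clec4g with Kdr (0.38). The lowest were Clec4g with Lyve1 (-0.21) and Bmp2 with Egfl7 (-0.20). All these cells share 1 library and its free RNA, and the summed members in CPM had a correlation of -0.34 with the depth of the cell, so the coefficients are descriptions only.

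Levels also differed between cells with markers of the sinusoid's ends. By the preset zonal markers, 26 cells carried pericentral markers only (such as Wnt2, Rspo3, Kit and Thbd), 17 periportal markers only (such as Dll4, Efnb2, Ltbp4 and Ntn4), and 89 carried both. In the periportal-only cells Gpr182 was at 2371 CPM against 1468 in the pericentral-only cells (log2 ratio 0.69, 0.39 to 0.99). Stab1 was lower, at 1179 against 2172 CPM (log2 ratio -0.88, -1.24 to -0.54). Stab2 and Bmp2 had log2 ratios of -0.78 and -0.79, and Egfl7 had -0.47. The intervals of Clec4g, Oit3, Kdr, Lyve1 and Ptprb included 0. As most cells carried both kinds of marker and each end is represented by few cells, these values describe these cells and not a gradient.

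Other genes of the same pathways, fixed as lists by role, had the following values in the endothelial-like cells. They took part in the clustering, unlike the members, so the counts only describe the cluster, against the same 13.3% background. Of the VEGF receptors and ligands 5 of 7 were at least 4-fold higher, among them Flt4 (VEGF receptor 3) at 1161 CPM and Flt1 (VEGF receptor 1) at 551 CPM. The ligand Vegfa was not, with 8.52 CPM. Of the angiopoietin system 2 of 3 were higher, with the receptor Tek at 322 CPM.

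Bmp2 stood beside 7 of 9 BMP partners and targets that were at least 4-fold higher. These included the co-receptor endoglin (Eng) at 2000 CPM, the receptor Bmpr2 at 555 CPM and Bmp6, the other hepcidin-raising ligand, at 49.7 CPM. The target Id1 was 1.36-fold and the receptor Acvrl1 2.76-fold higher. The stabilins and Clec4g stood beside 6 of 8 other endocytic receptors, led by Fcgr2b (an Fc receptor for immune complexes) at 2405 CPM and Mrc1 (the mannose receptor) at 1261 CPM. Lrp1 and Colec12 were lower there than in other cells, at 0.172-fold and 0.348-fold.

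Transcription factors of this endothelium were also present. At least 4-fold higher were 6 of 9, among them Maf at 2202 CPM, Nr2f2 at 635 CPM and Gata4, a factor that sets sinusoidal identity, at 203 CPM. The shear-responsive Klf2 and Klf4 were 0.559-fold and 0.471-fold of other cells. All 4 other sinusoid genes were higher, with Dnase1l3 at 2200 CPM and F8 (coagulation factor VIII) at 768 CPM. Genes of continuous endothelium were higher in 6 of 8, such as Plvap at 471 CPM. None of the lymphatic genes was, as Prox1 had 1 UMI and Pdpn, Ccl21a, Reln and Mmrn1 had 0.

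Across the 23 clusters, the genes whose levels followed those of the 10 members most closely were ranked by correlation among 9270 candidates. Il6st (the shared receptor of interleukin-6 cytokines, 0.937), Fabp4 (a fatty acid carrier, 0.931) and Gpihbp1 (the capillary anchor of lipoprotein lipase, 0.926) came first. Fam167b, Aqp1, Cracr2b, Dnase1l3, Tspan7, Adgrf5 and Flt1 completed the first 10, down to 0.905. The points are clusters of 1 library.

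Cluster 0 carried the members in shallower cells with mixed markers and was left unnamed. It had 513 cells with a median of 1312 UMIs and 19.5% mitochondrial UMIs, against 10.8% in the endothelial-like cells. Its leading genes were Col3a1, Col1a2, Dcn, Col1a1 and Fabp4, genes of collagen-making cells except the last, while 5 of 10 endothelial markers were also raised. The members were at 5739 CPM, and the endothelial-like level was 3.14-fold higher, from 2.40-fold for Egfl7 to 4.37-fold for Lyve1. Of its cells 395 (77.0%) had 3 or more members, and 255 (49.7%) after thinning to 500 UMIs. Cells with stellate markers carried fewer members: 42 cells with at least 2 stellate markers had a median of 1 member, and 410 cells with none had a median of 5. The split was not complete, since 20 of the 42 had no member but 6 had 8 or more.

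Outside these clusters single members had more UMIs, relative to Clec4g, than in the endothelial-like cells. To set a gene's level beside free endothelial RNA, its UMIs were divided by those of Clec4g in the same cells. This was set against that ratio in the endothelial-like cells, leaving out cells with 3 or more endothelial markers. Free RNA of a single source would keep the ratio near 1, but it was not exactly 1 in other cells. In all T cell-like cells it was 1.77 (1.07 to 2.94) for Stab1 and 0.441 (0.201 to 0.892) for Ptprb. The intervals of the other members included 1 there. Modest ratios are therefore descriptions only. In the macrophage-like cells Stab1 had 627 UMIs against 29 of Clec4g, and its ratio was 39.5 times that of the endothelial-like cells (27.0 to 59.8), or 13.4 times (10.7 to 17.1) with all cells of the class. Over the whole class Stab1 was at 213.5 CPM, with UMIs in 144 of 283 cells. Lyve1 had a ratio of 5.73 (3.60 to 9.30) in the macrophage-like cells, or 2.45 (1.78 to 3.36) with all cells, where 85 UMIs of the whole class came from 15 cells. Stab2 there was close to the endothelial ratio (1.26, 0.598 to 2.51).

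The Kupffer-like cells differed from the macrophage-like cells in Stab2, and their 2 clusters differed from each other in Stab1. Cluster 19 had 65 UMIs of Stab1 and 48 of Stab2, the latter in 30 of 76 cells, against 3 of Clec4g. The ratios were 39.5 (12.9 to 197) for Stab1 and 44.9 (14.4 to 226) for Stab2, or 15.7 and 18.6 with all 79 cells of the cluster. In the larger cluster 8, with 191 cells under 3 endothelial markers, the ratios were 2.13 (0.911 to 5.06) for Stab1 and 5.61 (2.69 to 12.4) for Stab2. Among the 162 Kupffer-like cells without any endothelial marker UMI, 5 of them of cluster 19, Stab1 had 2 UMIs (ratio 0.730, 0.0695 to 4.47) and Stab2 had 17 (ratio 9.54, 3.37 to 33.2). A level of Stab1 beyond the endothelial ratio was therefore not seen in the Kupffer-like cells outside cluster 19, while Stab2 was above it in both clusters. The monocyte-like cells had 115 UMIs of Stab1 against 6 of Clec4g, a ratio of 35.0 (15.5 to 97.5), or 6.53 with all cells. In the granulocyte progenitor-like cells Egfl7 had the highest ratio, with 180 UMIs against 12 of Clec4g (35.9, 19.9 to 71.1), or 29.6 with all cells. In the tumor epithelial-like cells Stab1 had 59 UMIs and Egfl7 had 60 against 11 of Clec4g, ratios of 9.79 (5.07 to 20.7) and 13.1 (6.76 to 27.7). The intervals of these ratios are wide because they rest on few Clec4g UMIs.

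**Figure D3:**
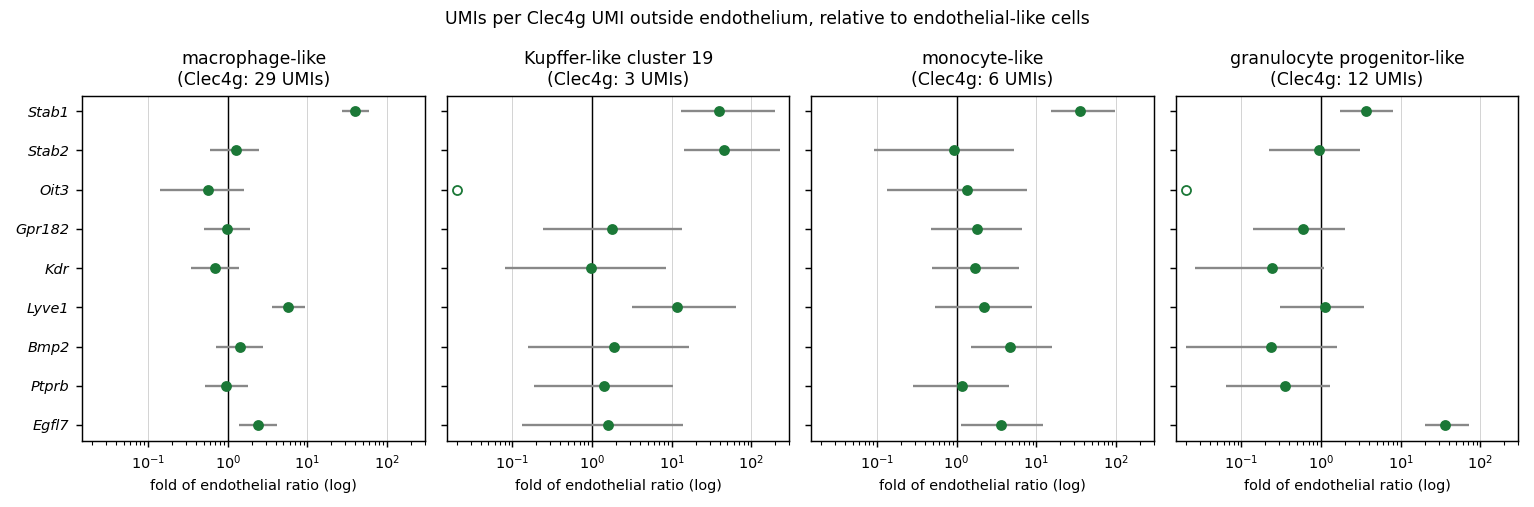
Ratio of the UMIs of 9 genes to those of Clec4g in 4 classes of the liver-named matrix outside endothelium, relative to that ratio in the endothelial-like cells (log axis, bars are exact 95% intervals of counting error, open circles stand for 0 UMIs, cells with 3 or more endothelial markers left out). Stab1 in macrophage-like cells stood at 39.5, Stab2 in the Kupffer-like cluster 19 at 44.9 and Egfl7 in granulocyte progenitor-like cells at 35.9.

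In the spleen-named matrix the 10 genes had 644 UMIs in 306 of 8975 cells, or 9.05 CPM (8.36 to 9.77). All 10 were at least 4-fold higher in the liver-named matrix, beside 11.6% of 15279 genes. The differences ran from 10.0-fold for Egfl7 and 63.3-fold for Stab1 to 1529-fold for Clec4g, which had 6 UMIs in the spleen-named matrix. Ptprb had 2 UMIs there, and its ratio of 3080 has an interval of 852 to 25446. Gpr182 had none, which allows up to 0.0421 CPM. These values are summed over all cells of a matrix, so they mix the share of endothelial cells with the level per cell. The liver-named matrix had 134 endothelial-like cells and the spleen-named matrix had 0.

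The spleen-named UMIs belonged mainly to Egfl7 and Stab1. Egfl7 had 466 of the 644, of which 337 (72.3%) were in granulocyte progenitor-like cells. Stab1 had 102, of which 45 were in monocyte-like cells, and Stab2 had 22, of which 19 were in macrophage-like cells. The other members had 24 UMIs or fewer each. No cell of the 8975 had 3 or more members, and 13 had 2, while 42 cells carried 3 or more endothelial markers.

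The comparison of treatments addressed whether these genes differed with CBL0137 in the endothelial cells that were captured. It rests on 8 vehicle, 39 low-dose and 38 high-dose endothelial-like cells, and a further 49 carried no called hashtag. They were 0.973% (0.421 to 1.91) of vehicle, 3.00% (2.14 to 4.08) of low-dose and 4.39% (3.13 to 5.98) of high-dose cells. As cells without a hashtag were mostly marked by A0310 and the cells were enriched for leukocytes, these are shares of what was captured and called. The groups, of 822, 1301 and 865 cells, also differed in their other cells. Neutrophil-like clusters 2, 3 and 15 had 157, 95 and 2 vehicle cells, 238, 130 and 115 low-dose cells, and 11, 70 and 3 high-dose cells. Their part in the shares was not tested.

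The summed members were at 13927 CPM in vehicle, 21087 CPM in low-dose and 15444 CPM in high-dose endothelial-like cells. Single cells ranged from 8574 to 23744 CPM in vehicle (median 14664), from 10262 to 38581 in low dose (median 21221) and from 7928 to 34197 in high dose (median 15718). The ranges of the 3 groups overlapped. The log2 ratio to vehicle was 0.60 (0.48 to 0.72) for low dose and 0.15 (0.03 to 0.27) for high dose, in intervals that leave out the spread between mice.

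In these cells Kdr differed most evenly between both doses and vehicle, but its direction changed with the choice of cells, as given below. Its level was 1191 CPM in vehicle (2 to 12 UMIs per cell), 2673 CPM in low dose (1 to 30) and 2210 CPM in high dose (2 to 44). The log2 ratios were 1.17 (0.77 to 1.58) and 0.89 (0.50 to 1.31), with overlapping cells in all groups. Stab2 was at 678, 1751 and 902 CPM, with a log2 ratio of 1.37 (0.85 to 1.93) for low dose and 0.41 (-0.12 to 0.99) for high dose. Past 2-fold higher in low dose were these 2 of 10 members, beside 12.3% of 2076 genes higher and 6.02% lower. The pooled vehicle levels lean on the 2 deepest of the 8 vehicle cells (9914 and 8510 UMIs). These had Kdr at 908 and 705 CPM, both below its pooled vehicle level, Stab2 at 202 and 0 CPM and Clec4g at 605 and 0 CPM. Not all members were low in them, as Lyve1 was at 1916 CPM in the first and Ptprb at 4348 CPM in the second. Ratios without these 2 cells were not computed.

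The intervals of Bmp2 (0.88), Clec4g (0.70), Gpr182 (0.59) and Ptprb (0.32) also lay above 0 in low dose. Those of Egfl7, Stab1, Oit3 and Lyve1 included 0. In high dose none of the 10 was past 2-fold, beside 15.1% of 2912 genes higher and 3.91% lower. Egfl7 (0.50, 0.08 to 0.95) and Lyve1 (0.46, 0.02 to 0.94) had intervals above 0 with Kdr. A single high-dose cell of 23603 UMIs held 46 of the 373 Egfl7 UMIs and 70 of the 321 Lyve1 UMIs, and had no Clec4g UMI. Another high-dose cell had 25101 UMIs, against a median of 5313.5 in the group. The pooled high-dose levels therefore lean on these deep cells, and ratios without them were not computed. Stab1, at 1869 CPM in vehicle and 1511 in high dose, had a log2 ratio of -0.31 (-0.64 to 0.04). Median log2 ratios of the members were 0.45 in low dose and 0.38 in high dose, beside 0.07 and 0.09 over all genes tested.

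RNA of other cell types differed between these groups too. In the endothelial-like cells the 8 neutrophil markers summed to 555 CPM in vehicle, 5094 in low dose and 646 in high dose, and 1 low-dose cell carried 500 of the 890 low-dose UMIs. The 7 macrophage markers were at 41.1, 195 and 614 CPM, the 8 T cell markers at 493, 5.72 and 236 CPM, and the 10 hepatocyte markers at 103, 429 and 211 CPM. Single cells also carried 22 of the 24 T cell marker UMIs in vehicle, 42 of the 58 in high dose and 70 of the 151 macrophage marker UMIs in high dose. Among the cells with under 20 leukocyte UMIs the log2 ratio of the summed members was 0.58 in low dose and 0.29 in high dose, against 0.60 and 0.15 in all. The part of hepatocyte RNA was not tested.

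The choice of cells changed the comparison. In cluster 0, with 25 vehicle, 69 low-dose and 70 high-dose cells, the members were at 11151 CPM, 6650 CPM and 4165 CPM, log2 ratios of -0.75 (-0.92 to -0.57) and -1.42 (-1.59 to -1.25). The medians over single cells were 10857, 11105 and 7349 CPM, so in low dose the median was not below that of vehicle. The median share of mitochondrial UMIs was 21.2%, 19.9% and 29.6%, and its part was not tested. Past 2-fold lower were 3 of 10 members in low dose and 8 of 10 in high dose, beside 7.88% and 12.7% of genes lower and 23.8% and 27.7% higher. The stellate markers were at 1118, 4279 and 2166 CPM there. Cells with at least 2 of these markers were 2 of 25, 4 of 69 and 7 of 70. Their shares (8%, 5.80% and 10%) did not follow the order of the CPM. Over all groups such cells reached 52602 UMIs, against a median of 1312 in the cluster, so pooled levels can lean on few deep cells. In the cells of cluster 0 under 2 stellate markers the members were at 11513, 10416 and 6693 CPM, and the log2 ratios were -0.14 (-0.32 to 0.03) and -0.78 (-0.96 to -0.61).

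Cells taken instead by 3 or more endothelial markers in any cluster gave the opposite direction in the sums, which included deep cells of other classes. Of these 407 cells 134 were the endothelial-like cluster, 219 were of cluster 0 and 54 lay elsewhere, 24 of them in the granulocyte progenitor cluster 10. The 54 cells had a median of 20729 UMIs and held 79.8% of the gated UMIs in vehicle, 54.4% in low dose and 50.6% in high dose. All gated cells together had members at 3191 CPM in vehicle, 8780 CPM in low dose and 5750 CPM in high dose. Past 2-fold higher were 9 of 10 members in low dose and 4 of 10 in high dose, beside 12% and 14.7% of genes higher and 6.08% and 8.29% lower. The median over single gated cells ordered the groups otherwise, at 9954, 16287 and 9425 CPM. Among the gated cells of clusters 0 and 14 alone the members were at 14110 CPM, 18162 CPM and 10707 CPM, log2 ratios of 0.36 (0.26 to 0.47) and -0.40 (-0.50 to -0.29), with 1 and 0 of 10 members past 2-fold higher. Clusters 0 and 14 together had log2 ratios of 0.09 in low dose and -0.54 in high dose, with 0 of 10 members past 2-fold at either dose. No direction of the summed members against vehicle held over these choices of cells at either dose. For Kdr alone the log2 ratios in low and high dose were -0.86 and -1.64 in cluster 0. They were 0.35 (0.06 to 0.65) and -0.17 (-0.46 to 0.12) in clusters 0 and 14 together, and 1.81 and 1.36 in all gated cells. Over all cells of a group, the members were at 206.9 CPM in vehicle, 550.2 CPM in low dose and 622.7 CPM in high dose, where the share of endothelial cells and the level per cell cannot be told apart.

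**Figure D4:**
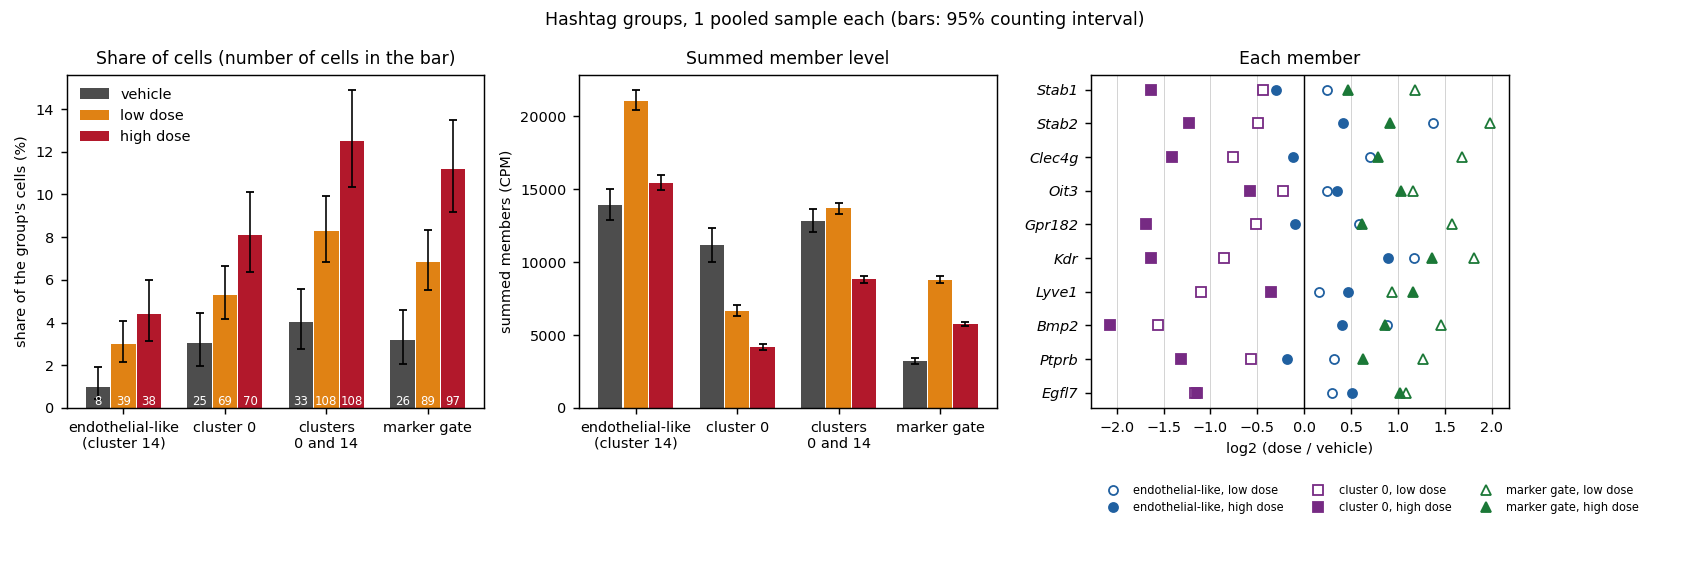
Treatment groups of the liver-named matrix under 4 choices of endothelial cells: share of the group's cells in percent and summed level of the 10 genes in CPM (bars, with exact 95% intervals of counting error and the number of cells in the bar), and log2 ratio to vehicle of each gene under 3 of the choices (open symbols low dose, filled symbols high dose). Shares were highest in high dose under all 4 choices, in groups whose other cell classes differed as well. The high-dose level lay above vehicle in the endothelial-like cells (15444 against 13927 CPM) and below it in cluster 0 (4165 against 11151 CPM).

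Genes of the related lists differed in the same cells. Maf was at 1191 CPM in vehicle, 2805 in low dose and 2036 in high dose (log2 ratios 1.24, 0.84 to 1.65, and 0.77, 0.38 to 1.19). In low dose 3 of 4 other sinusoid genes tested were past 2-fold higher, F8 (log2 ratio 1.27), Dnase1l3 (1.06) and Dpp4 (1.84). So were 2 of 3 periportal genes, Dll4 and Ltbp4, from 3 vehicle UMIs each. Maf and Klf2 of 6 transcription factors and Id1 and Id3 of 6 BMP genes were also past it. In high dose these lists had 1 of 4, 0 of 2, 2 of 7 and 2 of 6. The shares of all genes higher were 12.3% and 15.1%. Plvap was past 2-fold lower in low dose (log2 ratio -1.05). Of the 5 pericentral genes tested, Rspo3 was past 2-fold lower in low dose, and Rspo3 and Thbd in high dose, beside 6.02% and 3.91% of genes lower. Each rests mainly on 1 vehicle cell. The highest vehicle cell held 37 of the 38 UMIs for Rspo3 and 24 of the 26 UMIs for Thbd. Whether these were the same cell was not examined. Wnt2, Kit and Cdh13 had intervals that included 0 at both doses. Ly6a was at 370, 80.1 and 1247 CPM, lower in low dose and higher in high dose. Vwf, another gene of the continuous endothelium list, was at 349, 0 and 16.3 CPM, from 17, 0 and 4 UMIs. Apln, of the same list, was at 41.1, 5.72 and 110 CPM, from 2, 1 and 27 UMIs. Vwf and Apln were each seen in only 8 of the 134 endothelial-like cells, so these values rest on few cells. Among the VEGF receptors and ligands 1 of 4 tested genes, the co-receptor Nrp1, was past 2-fold higher in low dose and none of 4 in high dose, beside 12.3% and 15.1% of genes.

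Outside endothelium the members were compared by treatment in some of the classes where they stood above the endothelial ratio to Clec4g. These were classes of the liver-named matrix and their spleen-named counterparts, and the tumor epithelial-like cells were not among them. All cells of a class were used here, also those with 3 or more endothelial markers. Stab1 in macrophage-like cells was at 159 CPM in vehicle (56 cells), 203 in low dose (77 cells) and 252 in high dose (71 cells), with a high-dose log2 ratio of 0.66 (0.34 to 0.99). In the monocyte-like cells of the liver-named matrix it was at 35.6, 41.7 and 57.0 CPM. The order was the reverse in the monocyte-like cells of the spleen-named matrix, with 18.9, 7.45 and 1.97 CPM from 35, 9 and 1 UMIs. Lyve1 in macrophage-like cells had 0, 23 and 62 UMIs in the 3 groups, the 23 in 3 cells (19 in 1 of them) and the 62 in 12 cells (26 in 1 of them). In the Kupffer-like cells Stab2 had log2 ratios of -0.74 (-2.19 to 0.91) and -0.46 (-1.72 to 1.07) from 6, 15 and 39 UMIs, and Stab1 had 0.63 (-1.51 to 3.82) and 1.83 (-0.08 to 4.91) from 2, 13 and 64 UMIs. A single high-dose cell held 29 of the 64 Stab1 UMIs. These values pool clusters 8 and 19, which had 18 and 5 vehicle cells but 5 and 38 high-dose cells. In cluster 19 Stab1 was at 23.7, 59.6 and 91.2 CPM, from 1, 13 and 54 UMIs. In cluster 8 it was at 37.5, 0 and 378 CPM, from 1, 0 and 10 UMIs. No difference was detectable in the pooled Kupffer-like cells at this depth.

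Egfl7 differed by treatment in 1 of the 2 granulocyte progenitor clusters of the spleen-named matrix. This was cluster 17, with Mpo and Cd34 among its 10 leading genes. Egfl7 had 58 UMIs in 64 vehicle cells there, 76 in 41 low-dose cells and 168 in 50 high-dose cells. Its level was 23.8 CPM (18.1 to 30.8) in vehicle, 48.3 CPM (38.1 to 60.5) in low dose and 102 CPM (87.4 to 119) in high dose. Cells with an Egfl7 UMI were 43.8%, 58.5% and 80.0% of the groups, although the median depth was lowest in high dose (27534.5 UMIs, against 38681.5 in vehicle). The log2 ratios were 1.02 (0.51 to 1.54) and 2.10 (1.66 to 2.56), beside 2.52% and 10.3% of genes past 2-fold higher. Without the 3 highest cells of each group the levels were 18.9, 36.1 and 79.0 CPM. In the other progenitor cluster, number 11, Egfl7 was at 3.79, 4.88 and 3.29 CPM with overlapping intervals.

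The makeup of that cluster differed between the groups as well. Cd34, a marker of early progenitors, was at 34.1, 77.6 and 159 CPM. Adgrl4, an adhesion receptor and 1 of the 10 endothelial markers used here, was at 46.0, 79.5 and 229 CPM. Emcn, another of these markers, was at 0.411, 0.636 and 7.91 CPM, from 1, 1 and 13 UMIs. Elane, the elastase of later granulocyte precursors, was at 1028, 636 and 427 CPM. Among the other progenitor markers, Prtn3 (3889, 3215 and 2069 CPM) and Mki67 (469, 343 and 228 CPM) ran in the same order. Mpo (1334, 1448 and 1061 CPM), Ctsg (1464, 1580 and 924 CPM) and Ms4a3 (482, 527 and 451 CPM) were highest in low dose. Cebpe (25.1, 22.9 and 31.1 CPM) was highest in high dose. Their part in the Egfl7 values was not tested. In the matching cluster 10 of the liver-named matrix Egfl7 was at 25.4, 53.6 and 22.8 CPM, with log2 ratios of 1.07 (0.55 to 1.62) in low dose, beside 2.1% of genes past 2-fold higher, and -0.16 (-1.38 to 0.90) in high dose, where 15 cells and 9 UMIs were available. Cluster 4, the other liver-named progenitor cluster, had 6.40, 4.81 and 4.37 CPM with overlapping intervals.

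**Figure D5:**
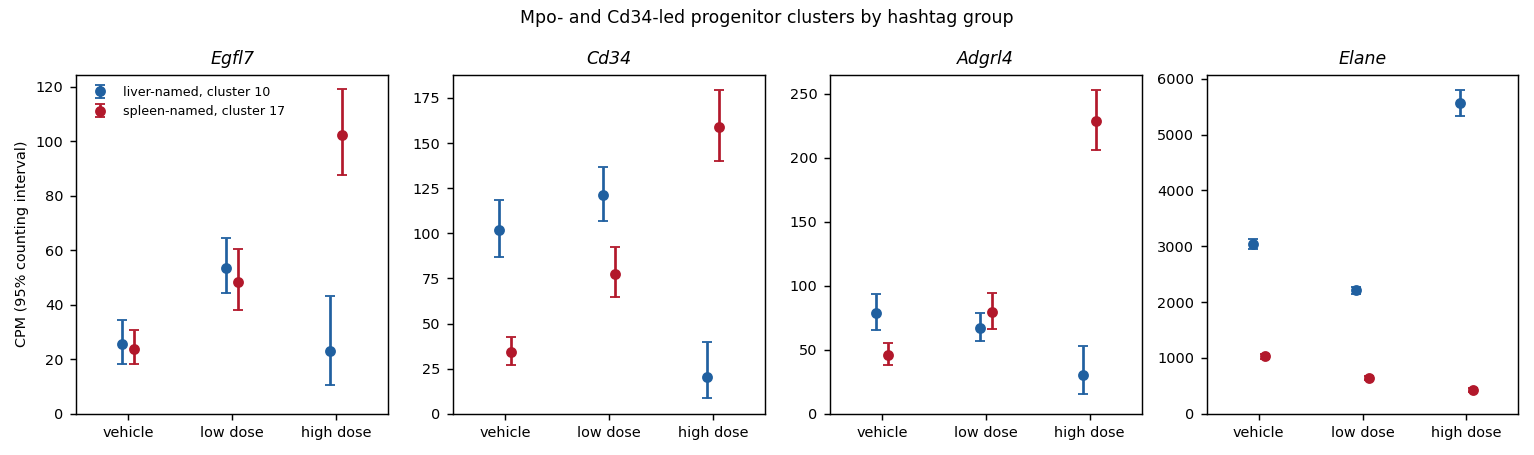
Egfl7, Cd34, Adgrl4 and Elane (CPM, with exact 95% intervals of counting error) by treatment in progenitor clusters of the liver-named (blue) and spleen-named (red) matrices. Both clusters had Mpo and Cd34 among their 10 leading genes. For Egfl7 in the spleen-named cluster 17 the levels were 23.8, 48.3 and 102 CPM, and in the liver-named cluster 10 they were 25.4, 53.6 and 22.8 CPM.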

How the data were processed

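Single-cell RNA was sequenced on the 10x Genomics platform in 2 pooled libraries. The authors deposited filtered gene by barcode matrices of UMI counts, not normalized, with hashtag counts beside them. The submitters' processing notes name Cell Ranger 6.0.0, Seurat and mm10, the matrix header gives Cell Ranger 5.0.0, and the version that made the counts was not settled. The group of a barcode came from the hashtags, which the labels tie to vehicle, low dose and high dose; replicates could not be separated within a hashtag, and 1 pooled sample per group allows no p-value.

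Hashtags were called with HTODemux (quantile 0.99, Seurat 5.3.0, R 4.3.3). Hashtag doublets were removed, and doublets within a hashtag were not sought. No other filter on cells was used. Counts were normalized with SCTransform (sctransform 0.4.2) for clustering only, with 3000 variable genes less the members, 30 principal components and a resolution of 0.8. A cluster was named from marker lists where at least 3 markers had a log2 fold of 1 or more with 10 CPM added in at least 20% of its cells and its 10 leading genes did not go against the name. Counts were then summed over cells and given as counts per 1000000 UMIs of those cells (CPM). Exact Poisson intervals were used for levels, Clopper-Pearson intervals for shares and conditional binomial intervals for ratios (95%; Python 3.11.15, numpy 2.4.6, scipy 1.17.1, pandas 2.3.3). They cover counting error only. A gene entered a comparison between groups with at least 20 UMIs, and was called past 2-fold between treatments or 4-fold between classes. A count of 0 allows up to 3 counts. The intervals were tried on simulated counts, where they covered the true value for 97.3% of unchanged genes in high dose and 97.4% in low dose. Those counts were drawn with no spread between cells or mice, so this cannot speak to such spread.

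The 10 members were taken by symbol, all of them are named, and other genes are named from lists by role. The members and lists were chosen with earlier results of these data known. Positions are from GENCODE M21 (32158 of 32285 gene IDs matched). Alternatives were other hashtag calls, clustering resolutions, cells by marker gate, filters on cells, thinning depth and scalings.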

Additional observations from a re-analysis of the deposited data

Results flagged for a closer look

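The barcodes carrying more than 1 hashtag, which no comparison used, also held the 10 genes. The 215 hashtag doublets of the liver-named matrix had 675 UMIs of the members, or 247 CPM (229 to 267), above the 9.05 CPM of the spleen-named matrix. Of these 215 doublets 23 (10.7%) had 3 or more members. Counted separately, 19 of the 215 carried 3 or more endothelial markers. Among the kept cells of the same matrix 650 (14.1%) had 3 or more members. The 616 doublets of the spleen-named matrix had 104 member UMIs (12.4 CPM), and 1 of them had 3 or more members.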

How the results depend on the processing

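Leaving out a replicate was not possible, because each group was 1 pooled sample. No paired analysis was possible because the labels give no replicate numbers. Of 88 values of the main results under alternatives 42 stayed close, 44 moved and 2 reversed; the cause was not tested. The summed high-dose log2 ratio (0.15) reversed at resolution 1.6 (-0.20) and with clusters 0 and 14 together (-0.54). It was 0.31 with MULTIseqDemux and 0.31 with the dominant hashtag, 0.85 with the marker gate, 0.43 with the cell filter (at least 200 genes and under 10% mitochondrial UMIs) and 0.29 under 20 leukocyte UMIs. The low-dose ratio (0.60) was 0.37 at resolution 1.6, 1.46 with the gate, 0.89 with the filter and 0.094 with clusters 0 and 14. Members past 2-fold in high dose (0) were 1 with the dominant hashtag, 4 with the gate, 5 with the filter and 1 under 20 leukocyte UMIs, beside 24.4%, 14.7%, 21.1% and 13.1% of genes higher; in low dose (2) they were 1 at resolution 1.6, 9 with the gate, 4 with the filter and 0 with clusters 0 and 14, beside 12.4%, 12%, 19.5% and 15.5%. Endothelial-like shares at resolution 1.6, with the gate and with clusters 0 and 14 were 1.95%, 3.16% and 4.01% in vehicle, 5.38%, 6.84% and 8.30% in low dose and 7.98%, 11.2% and 12.5% in high dose; the filter gave 1.40% in low dose and 2.54% in high dose. The order of shares from vehicle to high dose was the same in each of these. Endothelial-like against other cells, the log2 ratio (5.93) was 6.42 at resolution 1.6, 5.66 with the gate, 6.95 with the filter, 6.07 without leukocyte UMIs, 6.01 without the 20 most abundant genes, 4.30 as a mean over cells, 6.40 in singlets, 6.72 with clusters 0 and 14 and 5.97 without mitochondrial UMIs. Cells with 3 or more members (95.5%) were 99.3% at 1000 UMIs, 100% without thinning, 87.0% at resolution 1.6, 68.8% with the gate, 98.4% with the filter, 75.0% without leukocyte UMIs and 61.2% with clusters 0 and 14. Leaving out cells with 3 or more leukocyte UMIs kept 8 of 134 cells and none of vehicle, so treatments could not be compared there. Joining clusters 0 and 14, the limit of 20 leukocyte UMIs, leaving out mitochondrial UMIs the gate within clusters 0 and 14 and the ratios to Clec4g without cells carrying endothelial markers were chosen after seeing the data. The 8 vehicle cells limit every comparison of treatments.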
